A study of Homo sapiens with 16 samples.

Results

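The 10 genes TAGLN, TAGLN2, ACTA2, TPM1, TPM2, CNN2, CNN3, MYL9, CALD1 and ACTN1 encode an actin, proteins that lie along or cross-link actin filaments, and a light chain of the motor that pulls on them. They were selected on their gene names, with values of TAGLN and ACTA2 from these libraries already known: TAGLN reached 51.5 and 93.5 CPM (read counts scaled to a common library size) in parental SW620 cells, and 8.24 and 5.74 in SW620 carrying the empty vector, and ACTA2 18.7 and 13.3 CPM in parental SW480 cells against 0.31 and 0.311 in parental SW620. Those values are a description and support nothing. All 10 of the 63677 genes in the count table were found by Ensembl identifier, and all 10 were among the 17464 genes with enough reads to test.

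RNA was sequenced from SW480 and SW620, colon cancer lines that came from the primary tumour and a lymph node metastasis of the same patient. Each line was studied untransduced (parental), transduced with an empty vector, and transduced with estrogen receptor beta (ERB, the product of ESR2). A further pair of SW620 groups with ERB received DMSO (dimethyl sulfoxide, a common solvent) for 24 h or 10 nM estradiol for 24 h, and all cells grew in DMEM medium with fetal bovine serum. This gave 8 groups of 2 libraries, numbered I and II. The labels give neither the promoter of the vector nor whether transduced cells were clones or pools, and DMSO and estradiol were given only to SW620 with ERB. They also do not say that libraries I and II came from separate cultures, so p-values measure only the spread between these libraries, which may be technical.

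Actin filaments contract when myosin II slides along them. In smooth muscle and in the stress fibres of other cells, phosphorylation of the regulatory light chain switches myosin on, while tropomyosin, caldesmon and calponin lie along the filament and limit access to it. Many of these genes carry CArG boxes, the binding sequence of serum response factor (SRF), which reads the actin state of the cell through its cofactors MRTFA and MRTFB. In intestine these proteins are most abundant in smooth muscle and myofibroblasts, and epithelial cells use non-muscle forms at the cell cortex.

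RefSeq start-site windows on GRCh38.p14 (250 bases before to 50 after a start) were at hand for 8 of the 10 genes, not for TAGLN and MYL9. They were read on both strands for the CArG box (CC and GG around 6 bases that are A or T), the TEAD sequence GGAATG and the AP-1 sequence TGANTCA, which can overlap each other. A CArG box was found for 2 of 8 genes, CNN2 and ACTN1, against 1.60% of all 27305 genes with a window. The TEAD sequence was found for 4 of 8 (ACTA2, ACTN1, CALD1 and CNN3) against 16.7%, and the AP-1 sequence for 2 of 8 (TAGLN2 and CALD1) against 9.37%. These shares count a gene with a match in any of its windows. Genes with several windows, as CALD1, ACTN1 and TAGLN2 have, thus have more chances of a match. Of all 35116 windows, 454 held a CArG box, 4928 the TEAD sequence and 2707 the AP-1 sequence. The 8 genes were not compared with genes of equal window number, so no excess is claimed. The 4 stretches below are shown because they hold the CArG box (CNN2, ACTN1) or belong to genes called in several comparisons (TAGLN2, ACTA2), and the capitals mark the match, 5′ to 3′ on the strand of the gene.
CNN2, CArG box at -89, chr19:1026479-1026568, plus strand: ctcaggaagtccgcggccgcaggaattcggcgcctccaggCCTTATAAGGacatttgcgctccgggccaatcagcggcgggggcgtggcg
ACTN1, CArG box at -171, chr14:68977688-68977777, minus strand: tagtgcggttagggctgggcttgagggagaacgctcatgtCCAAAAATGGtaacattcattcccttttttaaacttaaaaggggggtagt
TAGLN2, AP-1 sequence at -49, chr1:159924596-159924684, minus strand: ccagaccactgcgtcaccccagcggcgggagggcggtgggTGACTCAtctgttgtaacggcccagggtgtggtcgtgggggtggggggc
ACTA2, TEAD sequence at -183, chr10:88952907-88952996, minus strand: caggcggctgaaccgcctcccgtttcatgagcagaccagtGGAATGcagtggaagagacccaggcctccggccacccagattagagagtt
Positions count from the start site to the first base of the match. A match of letters is a description of this window and not evidence of binding.

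The libraries held 12743940 to 18948283 reads assigned to genes. ESR2 had 100 to 187 reads in each of the 8 libraries labelled ERB and 0 to 4 in the others. The libraries labelled SW480 and empty vector did not carry the genes of parental SW480: 299 genes at least 8-fold higher in parental SW480 than in parental SW620 (and at 5 CPM or more) stood at a median of 2.21% and 2.08% of their parental SW480 level, against 17.1% and 20.9% in SW480 with ERB and 1.41 to 2.04% in the 10 SW620 libraries. These 2 libraries thus go against their SW480 label, and whether they hold SW480 cells cannot be told from these files. The 35 genes high in parental SW620 stood at 28.8% and 66.2% of their parental SW620 level in these 2 libraries. In SW480 with ERB they stood at 54.4% and 48.3%, and in parental SW480, where they were picked as low, at 4.58% and 5.59%. SW480 with ERB thus also stood away from parental SW480 in both sets of genes, and the cause was not tested. Libraries also differed by GC content of the genes: the decile of genes richest in GC minus the poorest ranged from -2.40 (log2, parental SW480 II) to 3.003 (SW480 with ERB I), with -1.63 and -2.36 in the DMSO libraries. By chi-square over genes divided by its degrees of freedom, libraries I and II differed most in the SW480 vector group (255) and parental SW480 (166) and least in SW620 with ERB (6.81). The epithelial keratins KRT8, KRT18 and KRT19 and EPCAM had reads in all 16 libraries. So did CDH1 (134 to 1465 reads), CDX2 (127 to 479) and VIL1 (1781 to 12199). The other colon epithelial markers, KRT20, LGALS4 and CDH17, had at most 8, 15 and 113 reads and none in at least 1 library. Of the fibroblast and endothelial markers COL3A1, FAP and PECAM1 had no reads, and COL1A1 (14 to 134 reads), PDGFRB (9 to 66), LUM (2 to 151) and VWF (8 to 34) had reads in all 16. Among 8 smooth muscle genes, MYH11, ACTG2, CNN1, LMOD1 and MYOCD had at most 4 reads in any library, DES had 2 to 34 in all 16, and SMTN, which epithelia also express, had 668 to 2760. Over all groups, 10 fibroblast and pericyte markers summed to 4.14 to 22.3 CPM, 5 endothelial markers to 0.508 to 3.99 and 5 leukocyte markers to 0.225 to 2.97. In bulk RNA, fewer cells that express a gene and less RNA per cell cannot be told apart.

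Per transcript length, TAGLN2, ACTN1, CNN2 and TPM2 had the highest levels of the 10 genes. The median FPKM (the deposited level per transcript length and sequencing depth) over 16 libraries, 15 for TAGLN2, was 459.7 for TAGLN2, 300.5 for ACTN1, 223 for CNN2 and 204 for TPM2. CNN3 followed at 74.9, TPM1 at 60.0, TAGLN at 24.1, MYL9 at 22.1 and CALD1 at 11.1 FPKM. ACTA2, the actin that defines smooth muscle and myofibroblasts, was lowest at 0.255 FPKM. On the CPM scale, where each gene is compared only with itself, the highest library exceeded the lowest 146-fold for ACTA2, 52.3-fold for TAGLN and 20.1-fold for CALD1. For the tropomyosin TPM1 the range was 2.09-fold, the narrowest of the 10, with 41.5 to 86.8 CPM and no group apart from its neighbour in order of level.

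**Figure D1:**
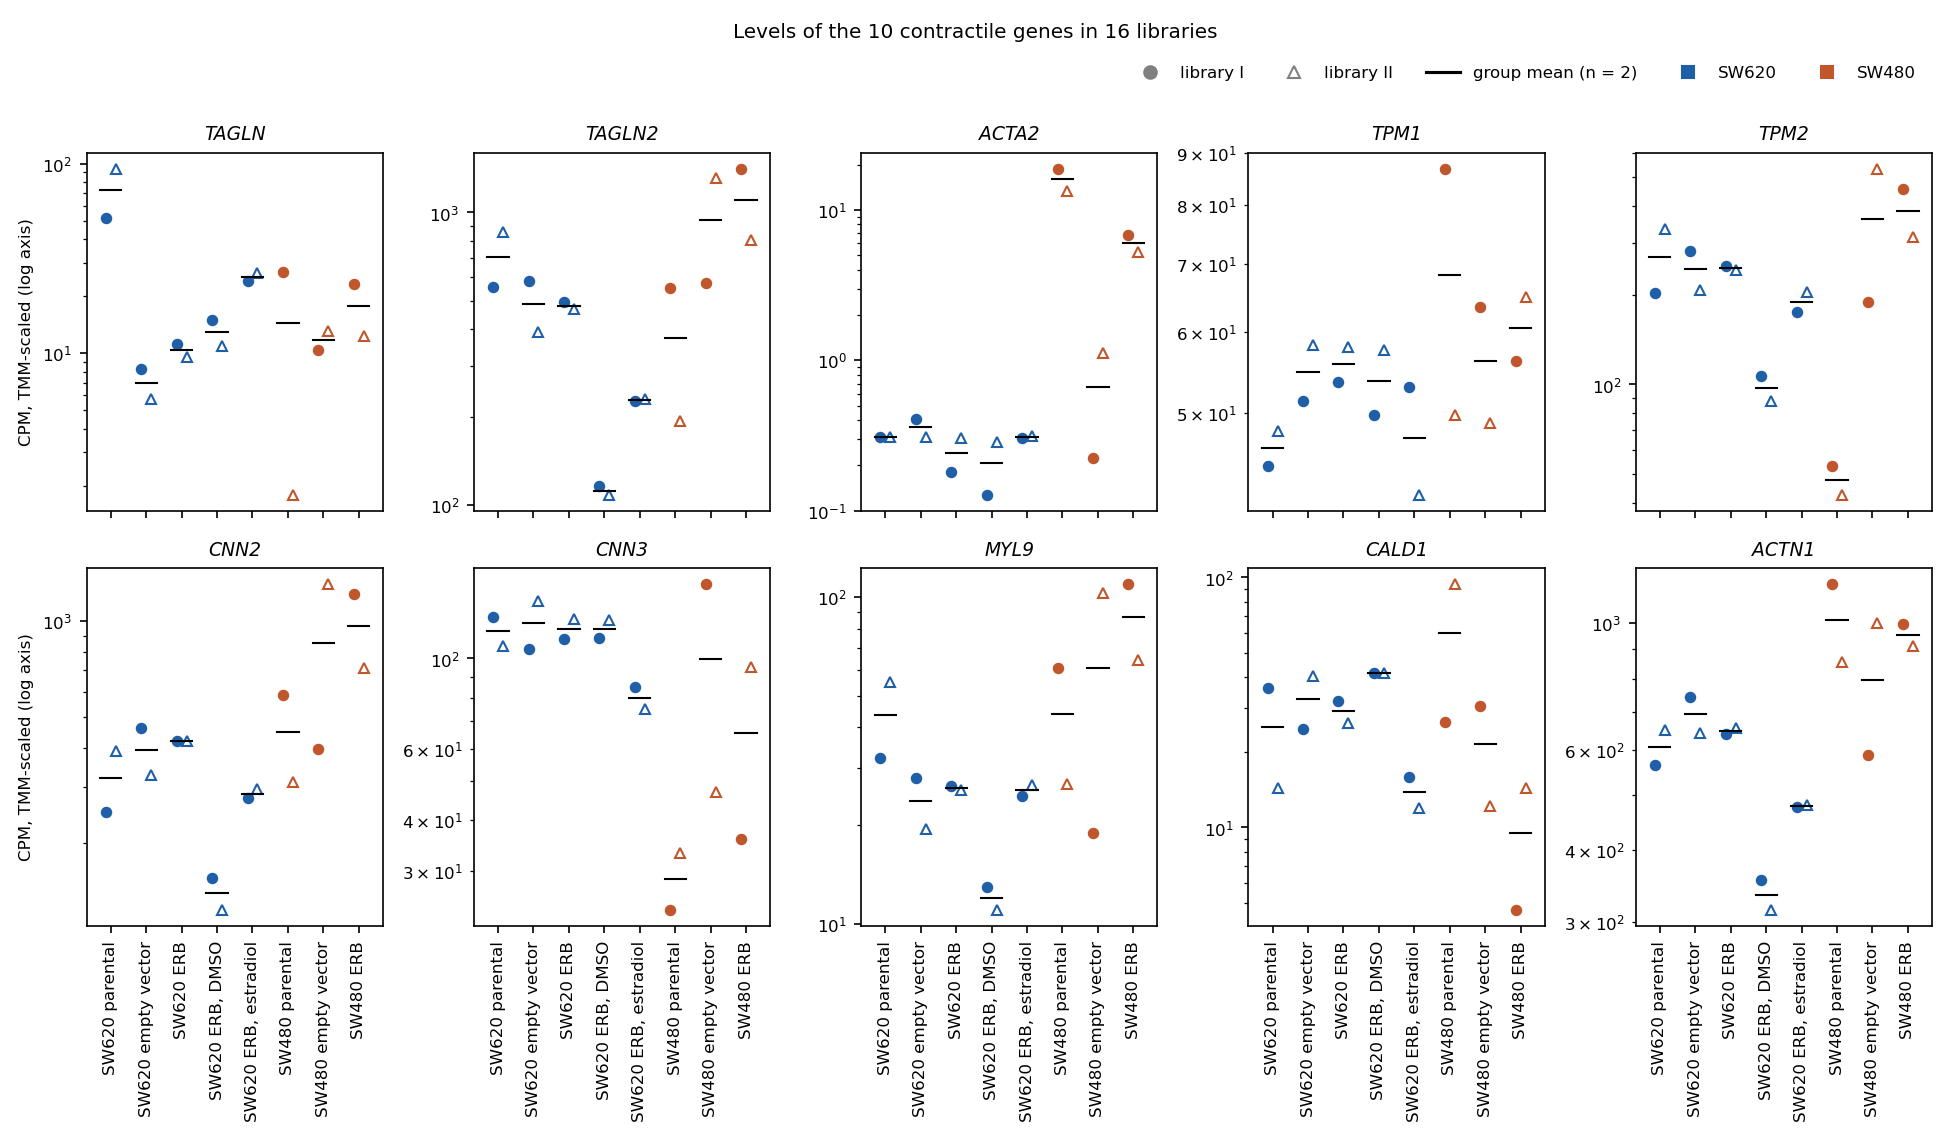
TMM-scaled CPM (log axis) of the 10 genes in the 8 groups; circles are library I, triangles library II, bars the group mean of 2 libraries, blue SW620 and orange SW480. ACTA2 stands above 5 CPM only in parental SW480 and in SW480 with ERB, and TAGLN2, CNN2, MYL9 and ACTN1 are lowest in the 2 DMSO libraries among SW620.

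ACTA2 is the smooth muscle alpha actin. All 10 SW620 libraries held 3 to 7 reads of it, 0.128 to 0.406 CPM. Parental SW480 held 302 and 305 reads (18.7 and 13.3 CPM). SW480 with ERB held 60 and 69 reads (6.84 and 5.27 CPM), and the libraries labelled SW480 and empty vector 3 and 10 reads (0.225 and 1.11 CPM). The order of the SW480 groups was thus parental, ERB, empty vector with no overlap, and the empty vector libraries overlapped the SW620 range with 1 of their 2 values. The same order held for the 299 genes high in parental SW480. FAS, which covers 12.8% of the ACTA2 exon bases on the opposite strand, had a mean of 14.1 ± 12.7 CPM (SD, n = 2) in parental SW480 and 0.0952 ± 0.0266 in SW480 with ERB, where ACTA2 had 6.06 CPM. ACTA2-AS1 had at most 8 reads in any library, and the sources used here do not say whether counting used the strand.

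**Figure D2:**
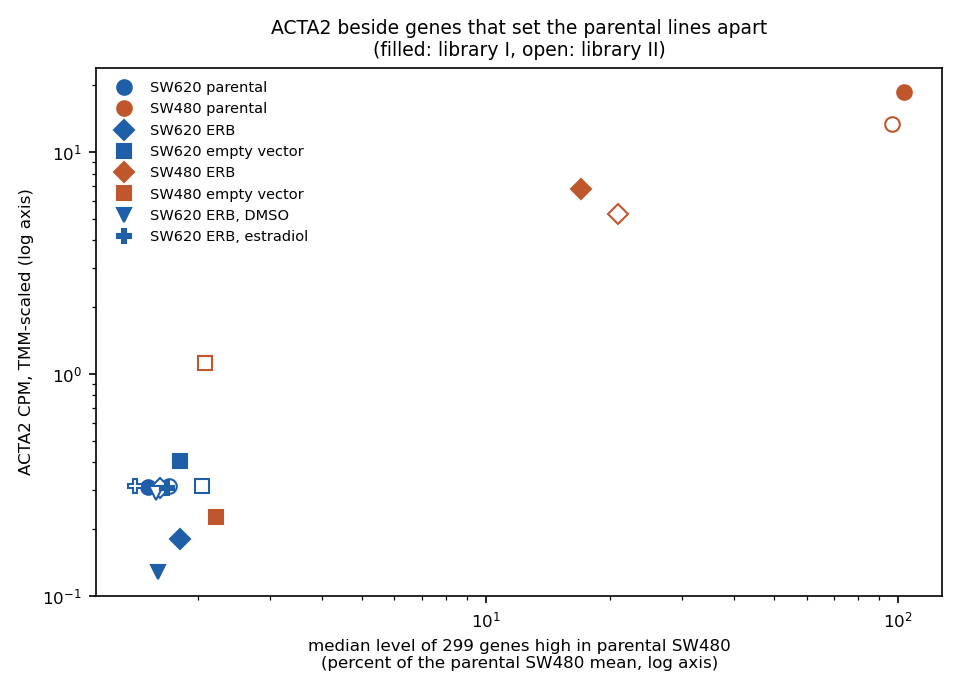
ACTA2 CPM (log axis) in each of 16 libraries against the median level of the 299 genes high in parental SW480, as a percent of the parental SW480 mean (log axis); filled points are library I and open points library II. The 4 libraries of parental SW480 and SW480 with ERB are the only ones above 5 CPM, and the libraries labelled SW480 and empty vector sit at 2.21% and 2.08% on the horizontal axis, beside SW620.

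Among the tropomyosins, coiled coils that run along the filament, TPM2 varied and TPM1 hardly did. TPM2 stood at 53.0 and 42.5 CPM in parental SW480, its lowest group. It stood at 189 and 531 CPM in the libraries labelled SW480 and empty vector and 454 and 313 in SW480 with ERB. In SW620 it stood at 203 and 334 CPM when untransduced, 280 and 208 with the vector, 249.6 and 242 with ERB, 107 and 88.3 after DMSO and 175 and 205 after estradiol. Only parental SW480, DMSO and estradiol were apart from their neighbours in order of level.

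CALD1 encodes caldesmon, and the calponins CNN2 and CNN3 are the non-smooth-muscle relatives of CNN1. CALD1 was highest in parental SW480 II (93.8 CPM, with 26.5 in library I) and lowest in SW480 with ERB (4.68 and 14.4 CPM). Across SW620 it stood at 41.6 and 41.5 CPM after DMSO, 15.9 and 11.97 after estradiol and 14.3 to 40.3 in the untreated groups. CNN3 was lowest in parental SW480 (24.1 and 33.2 CPM), stood at 152 and 47.1 CPM in the libraries labelled SW480 and empty vector and at 35.9 and 95.3 in SW480 with ERB, and lay between 74.9 and 138 CPM in all SW620 libraries. CNN2 reached 1306 CPM in SW480 with empty vector II and 1221 in SW480 with ERB I and was lowest after DMSO (156 and 124 CPM, against 278 and 296 after estradiol and 420 and 419 in untreated SW620 with ERB). Between libraries I and II of SW480 with empty vector, CNN2 (397 and 1306 CPM) and CNN3 differed in opposite directions.

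TAGLN (transgelin, SM22) is a calponin-like actin cross-linker of smooth muscle, and TAGLN2 its broadly expressed relative. After parental SW620, the group mean of TAGLN was highest with estradiol (24.2 and 26.5 CPM), and it stood at 14.98 and 10.97 after DMSO and 11.1 and 9.60 in untreated SW620 with ERB. The parental SW480 libraries disagreed, with 436 reads (26.9 CPM) in library I and 41 reads (1.79 CPM) in library II. SW480 with empty vector held 10.4 and 13.1 CPM and SW480 with ERB 23.2 and 12.3. PCSK7 covers 11.4% of the TAGLN exon bases on the opposite strand and had 808 to 1481 reads per library. TAGLN2 was at 557 and 858 CPM in parental SW620, 582 and 392 with the vector, 494 and 467 with ERB, 116 and 109 after DMSO and 228 and 229.7 after estradiol. In SW480 it was at 554 and 194 CPM when untransduced, 574 and 1316 with the vector and 1406 and 805 with ERB. The DMSO and estradiol groups were each apart from all other SW620 libraries. In 1 of the estradiol libraries the deposited FPKM of TAGLN2 is listed at 0 although the count table holds 3730 reads, so that library was left out of its median FPKM.

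MYL9, a regulatory light chain of smooth muscle and non-muscle myosin II, ranged from 12.98 and 11.02 CPM after DMSO to 109.5 and 64.3 in SW480 with ERB. ACTN1, the alpha-actinin that bundles actin at focal adhesions, stood at 1170 and 854 CPM in parental SW480 and 355 and 314 CPM after DMSO. Their estradiol values were 24.6 and 26.7 CPM for MYL9 and 477 and 481 CPM for ACTN1, apart from DMSO in both.

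Genes were called at an adjusted p below 0.05 (Benjamini-Hochberg over all genes) from edgeR's quasi-likelihood test, fitted on all 16 libraries. The comparison of the parental lines was used in the choice of genes, so its values carry no test. SW480 minus SW620 gave 5.65 ± 0.62 (log2 ± SE) for ACTA2, -2.49 ± 0.45 for TPM2, -2.03 ± 0.52 for CNN3 and -2.34 ± 0.83 for TAGLN. Of the 10 genes, 1 passed the threshold as higher in SW480 and 2 as lower, where 11.2% and 6.84% of all genes did. With offsets that remove a smooth trend in GC content and length from each library, 3 passed as higher and 4 as lower, where 15.4% and 19.9% of all genes did. The offsets added ACTN1 (0.84) and CNN2 (0.66) above and TAGLN (-2.33) and TAGLN2 (-0.85) below. CNN3 did not pass without any 1 of the 4 parental libraries (log2 -2.28 to -1.80).

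Empty vector against parental cells asks what transduction alone went with. In SW620, a comparison also used in the choice, TAGLN was at -3.37 ± 0.87 (log2 ± SE) and no gene passed in either direction (0% and 0% of all genes, with 276 genes at an unadjusted p under 0.05 in edgeR and 11 called by DESeq2). In a fit on SW620 libraries alone, 1 of the 10 genes, TAGLN, passed as lower and 0 as higher, where 0.0181% and 0.0665% of all genes did. In SW480, TPM2 rose by 2.91 ± 0.46 and CNN3 by 1.80 ± 0.52, and ACTA2 was at -4.66 ± 0.59. These are given without a test, because the choice of genes used the comparison of the parental lines, which holds parental SW480. At the threshold, 2 of 10 passed as higher and 1 as lower, where 14.9% and 16% of all genes passed. TAGLN2 was at 1.34 ± 0.51 and did not pass. With GC and length offsets 3 were higher and 2 lower, where 26.5% and 16.9% of all genes were: TAGLN2 (0.94) joined TPM2 (2.22) and CNN3 (2.38), and ACTN1 (-0.74) joined ACTA2 (-4.63). These values rest on the 2 libraries that carry the SW480 label without the parental SW480 genes, and share the parental SW480 libraries with the comparison of the lines. The 10 epithelial markers summed to 2897 to 5613 CPM in parental SW480, 8563 to 30410 with the vector and 16140 to 29800 with ERB. Their part in the result was not tested. CNN3 was not called without either parental SW480 library or without empty vector I (0.71 to 2.05 in log2). TAGLN went from -0.28 with both parental SW480 libraries to 2.69 without parental SW480 I.

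The change with empty vector was set directly between the lines by an interaction term. SW480 minus SW620 was 3.05 ± 0.61 for TPM2 and -4.85 ± 0.90 for ACTA2, and both passed the threshold. Both are a description, since the contrast holds the comparison of the parental lines used in the choice. The count was 1 gene in each direction, where 3.01% and 4.20% of all genes passed. Under the GC and length offsets 4 passed as higher and 2 as lower, where 16.3% and 8.84% of all genes did. When only the 4 groups of this contrast were fitted, no gene of the 10 passed, and few of all genes did (share given below by setting). TPM2 was not called without parental SW620 II or without SW620 with empty vector II.

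ERB against parental cells joins the vector and the receptor. In SW620 the 10 genes gave 0 calls in either direction, where 0.00573% and 0% of all genes were called (471 genes at an unadjusted p under 0.05 in edgeR, 39 called by DESeq2). TAGLN was at -2.81 ± 0.85, against the same parental libraries as above, and in the fit on SW620 alone 1 of the 10 genes, TAGLN, passed as lower (0.0847% of all genes) and 0 as higher (0.260%). In SW480, TPM2 rose by 3.01 ± 0.46 and TAGLN2 by 1.56 ± 0.51, CALD1 fell by 2.65 ± 0.72, and ACTA2 was at -1.401 ± 0.48. All are given without a test for the same reason as above. At the threshold, these 2 of 10 higher and 2 lower compare with 19.5% and 24.9% of all genes. The median log2 difference was 0.65 for the 10 genes and -0.13 for all genes. With GC and length offsets 3 were higher and 3 lower, where 21.6% and 18.6% of all genes were, with TPM2 at 1.97, CNN3 at 2.09, TAGLN2 at 0.84, CALD1 at -1.99, ACTA2 at -1.50 and ACTN1 at -0.83. In a fit on SW480 libraries alone 0 of the 10 genes passed, and so did 0% of all genes. The genes high in parental SW480 also had a lower median level in SW480 with ERB, and their part in these values was not tested. The TAGLN2 and CALD1 calls were lost without parental SW480 II or SW480 with ERB I, and ACTA2 dropped out of the count without any 1 library of parental SW480, SW480 with ERB, or SW620 with vector, ERB or estradiol (log2 -1.66 to -1.21).

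**Figure D3:**
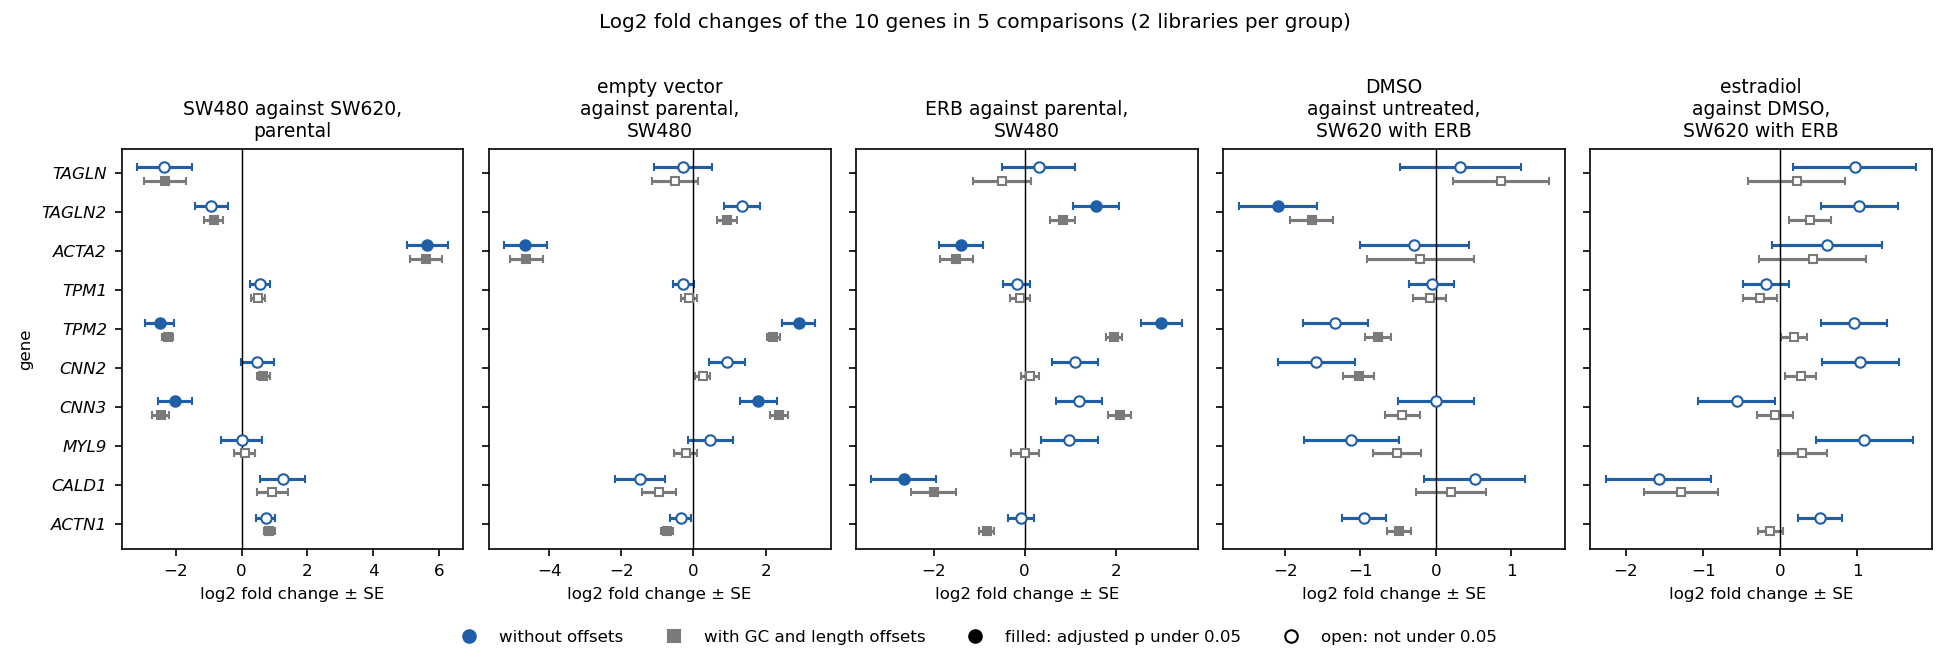
Log2 fold change ± SE of each gene in 5 comparisons; blue circles are without and grey squares with GC and length offsets, filled symbols have an adjusted p under 0.05, and each group holds 2 libraries. TPM2, CNN3 and ACTA2 have opposite signs in the first and second panels, which share the parental SW480 libraries. The fill in every panel that compares parental SW480 is a description.

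ERB against empty vector is meant to set the receptor apart from transduction. In SW480 it also carries the doubt, given above, over the label of the empty vector libraries. In SW620, 0 of 10 genes were called in either direction, where 0.00573% and 0% of all genes were (94 genes at an unadjusted p under 0.05 in edgeR). The log2 differences were -0.52 ± 0.68 for ACTA2 and 0.57 ± 0.81 for TAGLN, and between -0.16 (CALD1) and 0.14 (MYL9) for the other 8. In SW480, ACTA2 was higher with ERB by 3.26 ± 0.58, the 1 call of 10 genes, with 0 lower, where 1.10% and 0% of all genes were called. This is a description, as ACTA2 was chosen with its parental values known. It also passed the low-count filter through parental SW480 and SW480 with ERB, where it was high. Under the offsets 1 was higher and 0 lower, where 2.04% and 0.601% of all genes were, with ACTA2 at 3.13 ± 0.48. Without either library of SW480 with ERB, ACTA2 was at 3.01 to 3.375 in log2 and was not called. Nor was it called in the fit on SW480 libraries alone or on these 2 groups alone, where 0% of all genes were. The genes high in parental SW480 were likewise at 17.1% and 20.9% with ERB and 2.21% and 2.08% with empty vector. Their part in the ACTA2 difference was not tested. The ERB effect did not pass as different between the lines for any of the 10 genes, where 0.189% of all genes passed as higher in SW480 and 0% as lower. For ACTA2 this interaction was 3.78 ± 0.90, likewise a description, which did not pass in edgeR and passed with DESeq2.

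The lines were also compared within the transduced groups. With empty vector, 0 of 10 genes differed between the libraries labelled SW480 and SW620, where 0.0229% of all genes were called higher and 0.303% lower. The offsets again gave a count of 0 in each direction, where 0.933% and 1.16% of all genes were called. Without SW480 with empty vector I, 3 of the 10 were called (TPM2, CNN2 and MYL9), where 23.6% of all genes were (4319 of 18311). With ERB, ACTA2 was higher in SW480 by 4.58 ± 0.61, the 1 call among 10 (0 lower), where 1.71% and 0.292% of all genes were called. This too is a description, for the reasons given for ACTA2 above. With offsets ACTA2 was at 4.43 ± 0.50 and again the 1 call, with 0 lower, where 3.18% and 1.71% of all genes were called. This call was lost without either library of SW620 with ERB, whose ACTA2 rests on 3 and 6 reads.

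DMSO against untreated cells, both SW620 with ERB, measures the solvent arm. TAGLN2 fell by 2.099 ± 0.52 (log2 ± SE, adjusted p = 0.037, edgeR's quasi-likelihood test), 1 of 10 genes lower and 0 higher, where 3.76% and 2.39% of all genes were called. CNN2 was at -1.59, TPM2 at -1.33 and ACTN1 at -0.96, with adjusted p of 0.069 to 0.079 in the same test, and MYL9 at -1.12 (adjusted p = 0.26). For all 5 genes both DMSO libraries lay below both untreated ones, while CALD1 lay above and TAGLN, ACTA2, TPM1 and CNN3 overlapped. How many of all genes lie apart in this way was not computed, so this is a description. The median log2 difference was -0.62 for the 10 genes and 0.00371 for all genes. With GC and length offsets 4 were lower and 0 higher, where 11.5% and 9.04% of all genes were: TAGLN2 at -1.65, CNN2 at -1.02, TPM2 at -0.77 and ACTN1 at -0.49. The TAGLN2 call was lost without any 1 library of SW620 with empty vector, with ERB, with DMSO or with estradiol (log2 -2.15 to -2.05). The DMSO libraries are those with the GC trend of -1.63 and -2.36, against -0.15 in both untreated libraries. The summed level of 10 epithelial markers was 3420 to 3968 CPM after DMSO and 10510 to 10690 untreated, and that of 8 smooth muscle markers, nearly all SMTN, 38.7 to 62.3 and 134 to 135.5. Their part in the result was not tested. The arm and this trend cannot be told apart beyond the values with offsets.

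Estradiol against DMSO asks for the hormone response of cells with the receptor. No gene was called, 0% and 0% of all genes, with the smallest adjusted p at 0.24 and 3469 genes at an unadjusted p under 0.05 in edgeR (DESeq2 called 74). The log2 differences were 1.09 for MYL9, 1.04 for CNN2, 1.03 for TAGLN2, 0.96 for TPM2 and TAGLN, and 0.52 for ACTN1, and they were -1.58 for CALD1 and -0.56 for CNN3. In these 8 and in ACTA2 (0.61, on 3 to 5 reads) the estradiol libraries lay apart from the DMSO libraries, and TPM1 overlapped. How many of all genes lie apart in this way was not computed, so this is a description. The median was 0.78 for the 10 genes and 0.06 for all genes, and the 10 epithelial markers summed to 7111 to 8426 CPM after estradiol. In a fit on the SW620 libraries alone, 6 of the 10 were called higher and 2 lower, where 29.4% and 23.6% of all genes were. The 6 were TAGLN, TAGLN2, TPM2, CNN2, MYL9 and ACTN1, and the 2 CNN3 and CALD1. With GC and length offsets in that fit, 0 were higher and 1 lower, where 10.5% and 8.59% of all genes were: CALD1 at -1.28 ± 0.31 (adjusted p = 0.023, edgeR's quasi-likelihood test). The TAGLN2 difference in that fit was 0.37 ± 0.13 (adjusted p = 0.068) and that of CNN2 0.24 ± 0.11. The comparison shares the DMSO libraries with the one before.

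The members differ in GC content. The transcripts of MYL9 (60.9% GC), CNN2 (59.0%), TPM2 (59.0%), TAGLN (58.6%), ACTN1 (57.3%) and TAGLN2 (57.0%) lie above those of ACTA2 (51.9%), TPM1 (50.25%), CALD1 (46.7%) and CNN3 (45.2%). Among the SW620 libraries, MYL9, CNN2, TPM2, ACTN1 and TAGLN2 were lowest in the 2 DMSO libraries, which have the lowest GC trends, and CALD1 was highest there. TAGLN, as rich in GC, was not: its 14.98 and 10.97 CPM after DMSO lay above the 8.24 and 5.74 of SW620 with empty vector and overlapped the 11.1 and 9.60 of SW620 with ERB. CNN3, the poorest in GC, was not highest after DMSO, with 112.2 and 124.3 CPM against 138.3 in SW620 with empty vector II.

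**Figure D4:**
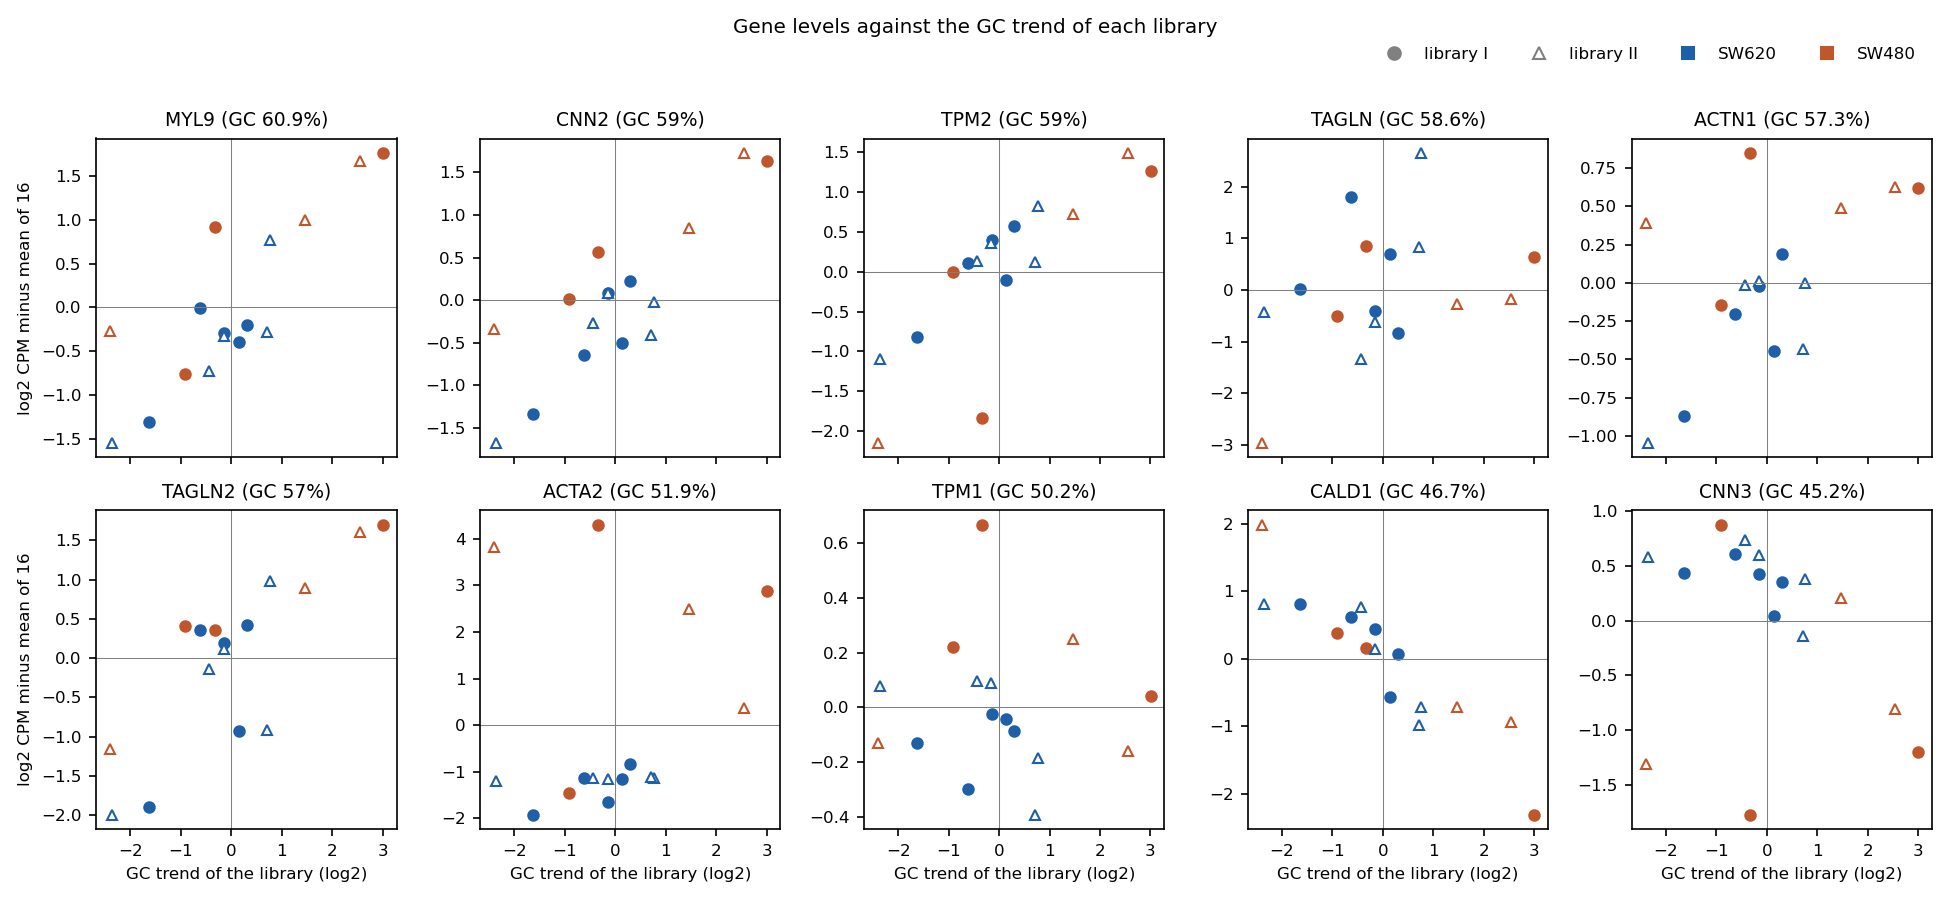
Log2 CPM of each gene minus its mean over 16 libraries (vertical) against the GC trend of the library, the log2 level of the GC-richest minus the GC-poorest decile of genes (horizontal), genes ordered by their GC percent; blue SW620, orange SW480, filled library I, open library II. MYL9 and CNN2 rise along the axis and CALD1 falls, while ACTA2 separates by group.

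As a description over the 16 libraries, which share their GC trend, the profile of the mean of the 10 scaled genes was carried by TAGLN2 (Pearson r = 0.949), CNN2 (0.896), MYL9 (0.881) and ACTN1 (0.865). CNN3 (r = -0.36) and CALD1 (r = -0.55) ran against it, and TAGLN (0.255) followed it little. The closest pair was CNN2 and MYL9 (r = 0.905), and ACTA2 and CNN3 were the most opposed (r = -0.86). Outside the 10, the profiles most like the mean were those of TUBA1C, a tubulin (r = 0.966), CALM3, a calmodulin gene (0.966), MCM7, a subunit of the replicative helicase (0.963), COA3, a cytochrome oxidase assembly factor (0.961), and CDC20, the mitotic activator of the anaphase-promoting complex (0.961).

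Other genes of the pathway were read from 2 lists. Of 34 tested actins and stress fibre proteins, 5 were higher and 1 lower in parental SW480 than in parental SW620, where 11.2% and 6.84% of all genes were. MYLK, the kinase that phosphorylates the myosin light chain, differed by 5.99 ± 0.52 (log2 ± SE), with 28.9 ± 9.62 CPM (SD, n = 2) against 0.443 ± 0.0755. FLNC, a filamin, was at 4.46 ± 1.37 against 0.490 ± 0.0785 CPM, and TNS3, a tensin, lower at 222 ± 2.79 against 997 ± 44.5. In the libraries labelled SW480 and empty vector 2 rose and 4 fell against parental SW480 (14.9% and 16% of all genes): MYLK fell by 5.54 ± 0.51 (adjusted p = 4.8e-05, edgeR's quasi-likelihood test) to 0.598 CPM, and TNS3 rose by 2.06 ± 0.27. With ERB against parental SW480, 6 rose and 7 fell (19.5% and 24.9% of all genes), MYLK by -3.54 ± 0.45 to 2.44 ± 1.19 CPM. MYLK took the same order over the SW480 groups as ACTA2, and so did the median of the genes high in parental SW480. By its parental levels MYLK meets the rule for those genes, for which parental SW480 comes first by selection, so the order is a description. After DMSO, ACTB, the main cytoplasmic actin, fell by 1.91 ± 0.44 (adjusted p = 0.028, same test) from 4119 ± 104 to 1098 ± 162 CPM, and MYLK rose from 0.530 to 1.98 CPM, the 2 calls in this list (2.39% of all genes were called higher and 3.76% lower). It gave 0 calls for estradiol, and the median log2 difference was 0.56, against 0.06 for all genes.

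Of 25 actin turnover proteins, 4 were higher and 3 lower in parental SW480 than in parental SW620 (11.2% and 6.84% of all genes). VIL1 (villin, of the epithelial brush border) stood at 104 ± 7.91 against 532 ± 71.8 CPM and CFL2, the muscle cofilin, at 32.4 ± 11.9 against 3.17 ± 0.957. Against parental SW480, 7 rose and 5 fell with empty vector (14.9% and 16% of all genes) and 7 rose and 8 fell with ERB (19.5% and 24.9%), with VIL1 up by 2.60 ± 0.24 and 2.55 ± 0.24. After DMSO 6 fell and 0 rose (3.76% and 2.39% of all genes), among them VIL1 (276 ± 1.33 against 597 ± 32.0 CPM), MSN, the membrane linker moesin (310 ± 6.07 against 640 ± 32.2), and FSCN1, the bundler fascin (16.2 ± 4.64 against 96.4 ± 13.5). For estradiol against DMSO this list gave 0 calls, and its median log2 difference was -0.16, against 0.06 for all genes. With ERB, 1 gene in each list was higher in SW480 than in SW620, where 1.71% of all genes were called higher and 0.292% lower: MYLK and GSN, the severing protein gelsolin. The list counts against parental SW480, between parental lines and for DMSO moved with single libraries, and so did the number of all genes called. Their ranges are given below with the shares of all genes.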

How the data were processed

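mRNA was sequenced from 16 libraries of SW480 and SW620 cells in 8 groups of 2, and the library kit keeps strand, per the labels' protocols. The deposited tables hold raw read counts per gene and FPKM values, made by the authors on GRCh37 with Cufflinks 2.1.1, HTSeq 0.6.1, Picard 1.29, TopHat2 2.0.4 and SAMtools, per the submitters' processing notes. The sources used here do not give which tool made which table, nor whether counting used strand. All per-sample columns were matched to samples by name, and 0 other columns were present.

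Counts were tested with edgeR 4.0.16 (R 4.3.3, TMM scaling, filterByExpr, quasi-likelihood test on 8 groups) over 17464 genes and 13 comparisons, with Benjamini-Hochberg adjustment within each comparison and a threshold of 0.05. The procedure was tested on simulated data. FPKM values served levels between genes and limma 3.58.1 on log2(FPKM + 1), a scale that understates changes of low genes. DESeq2 1.42.0, other scalings, filters, library subsets and offsets from a spline with 5 degrees of freedom in transcript GC content and length (98.1% of tested genes) were alternatives. The GC and length values came from a transcript set of another build and were joined by gene identifier.

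1 further gene list is not reported here. The members and lists were chosen with earlier results of these data known. List genes named are up to 3 per list and comparison, the called genes with the smallest p; a gene named for its likeness is among the 8 with the highest Pearson correlation to the mean profile. Depths were 12743940 to 18948283 assigned reads per library. RefSeq start-site windows supplied the sequences.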

Additional observations from a re-analysis of the deposited data

Results flagged for a closer look

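For TPM2 the change with empty vector passed the threshold as different between the lines, by an interaction term (edgeR's quasi-likelihood test, p adjusted by Benjamini-Hochberg over all genes). This is a description, since the contrast holds the comparison of the parental lines used in the choice of genes. The log2 change in SW480 minus that in SW620 was 3.05 ± 0.61 (SE), with mean levels of 47.7 and 360 CPM in SW480 and 269 and 244 CPM in SW620. The call was lost without parental SW620 II (log2 2.66) and without SW620 with empty vector II (log2 2.848). ACTA2 passed the same threshold at -4.85 ± 0.90, which is a description because the gene was chosen with its parental values known: its mean level was 15.98 and 0.669 CPM in the groups labelled SW480 and 0.311 and 0.358 CPM in SW620. These are 1 gene of 10 in each direction, where 3.01% of all genes passed as higher and 4.20% as lower. In a fit on the 4 groups of this contrast alone, 0 of the 10 genes passed, against 21 of all genes tested. Both SW480 values rest on the libraries labelled SW480 and empty vector, where the median of the 299 parental SW480 genes was 2.21% and 2.08% of the parental value. Their part in the difference was not tested.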

How the results depend on the processing

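The TPM2 call for empty vector against parental SW480 passed in every fit run and with every library left out in turn. It is a description, since parental SW480 is in the comparison used in the choice. Counts of called genes that moved by more than 1.5 times are given here by setting, each followed in parentheses by the share of all genes tested that the same fit called in that comparison. The cause was not tested, though fits on fewer libraries estimate the spread from fewer libraries. "Vector" means empty vector against parental cells where no other pair is named. Without a low-count filter the test gave 5 members between parental lines (14.6%), 1 member for vector in SW620 (0.0485%) and 5 members and 13 stress fibre genes for vector in SW480 (23%). It also gave 1 member for ERB against parental SW620 (0.0906%), 2 turnover genes for ERB against vector in SW480 (2.59%) and 1 stress fibre gene and 1 turnover gene between lines with vector (1.11%). Further counts were 5 members, 7 stress fibre genes and 10 turnover genes between lines with ERB (9.68%), 3 members and 7 stress fibre genes for DMSO (9.2%) and 1 member, 3 stress fibre genes and 5 turnover genes for estradiol (6.31%). The others were 6 members for the vector interaction (11%) and 1 member for the ERB interaction (0.424%). DESeq2 gave 5 members, 11 stress fibre genes and 11 turnover genes between parental lines (23.6%), 1 member for vector in SW620 (0.063%) and 10 stress fibre genes for vector in SW480 (40.5%). It also gave 1 stress fibre gene and 1 turnover gene for ERB against vector in SW480 (2.23%), 2 stress fibre genes and 2 turnover genes between lines with ERB (5.08%) and 3 members and 8 stress fibre genes for DMSO (15.2%). The remaining count was 1 member for the ERB interaction (0.765%). limma-voom gave 1 turnover gene for ERB against vector in SW480 (2.14%) and 6 stress fibre genes for DMSO (7.74%). limma on log2(FPKM + 1) gave 7 turnover genes for vector in SW480 (19.3%), 8 stress fibre genes for ERB against parental SW480 (26.9%) and 0 stress fibre genes and 0 turnover genes between lines with ERB (0.963%). It also gave 1 member for the ERB interaction (0.274%). limma on log2(FPKM + 0.1) gave 7 turnover genes for vector in SW480 (18.6%), 8 stress fibre genes for ERB against parental SW480 (25.2%) and 0 stress fibre genes and 0 turnover genes between lines with ERB (0.842%). It also gave 0 members and 1 stress fibre gene for DMSO (4.49%). limma on unfiltered log2(FPKM + 1) gave 7 turnover genes for vector in SW480 (12.6%), 6 stress fibre genes and 8 turnover genes for ERB against parental SW480 (13.3%) and 1 turnover gene for ERB against vector in SW480 (0.756%). It also gave 0 stress fibre genes between lines with ERB (0.922%) and 1 member for the ERB interaction (0.339%). A fit on the compared groups alone gave 3 stress fibre genes and 3 turnover genes between parental lines (9.28%), 1 stress fibre gene and 3 turnover genes for vector in SW480 (7.74%) and 2 members and 5 stress fibre genes for ERB against parental SW480 (25.6%). It also gave 0 members for ERB against vector in SW480 (0%), 2 members, 5 stress fibre genes and 3 turnover genes between lines with ERB (6.91%) and 6 members, 26 stress fibre genes and 19 turnover genes for DMSO (63.7%). Further counts were 8 members, 25 stress fibre genes and 20 turnover genes for estradiol (63.6%) and 0 members for the vector interaction (0.127%). A fit on 1 line alone gave 1 member for vector in SW620 (0.0847%), 1 stress fibre gene and 2 turnover genes for vector in SW480 (4.39%) and 1 member for ERB against parental SW620 (0.345%). It also gave 0 members, 0 stress fibre genes and 0 turnover genes for ERB against parental SW480 (0%), 0 members for ERB against vector in SW480 (0%) and 5 members, 21 stress fibre genes and 14 turnover genes for DMSO (48.8%). Further counts were 8 members, 22 stress fibre genes and 18 turnover genes for estradiol (53%). A fit without both SW480 empty vector libraries gave 11 stress fibre genes and 11 turnover genes between parental lines (29%), 2 members, 4 stress fibre genes and 2 turnover genes between lines with ERB (6.6%) and 4 members and 11 stress fibre genes for DMSO (19.9%). The fit with GC and length offsets gave 7 members, 15 stress fibre genes and 13 turnover genes between parental lines (35.3%), 5 members and 16 stress fibre genes for vector in SW480 (43.3%) and 1 turnover gene for ERB against vector in SW480 (2.65%). It also gave 1 turnover gene between lines with vector (2.09%), 3 turnover genes between lines with ERB (4.9%) and 4 members, 8 stress fibre genes and 13 turnover genes for DMSO (20.6%). The remaining count was 6 members for the vector interaction (25.1%). The 1-line fit with these offsets gave 2 members for vector in SW620 (0.853%), 3 stress fibre genes for vector in SW480 (21%) and 3 members, 2 stress fibre genes and 2 turnover genes for ERB against parental SW620 (3.47%). It also gave 3 stress fibre genes and 8 turnover genes for ERB against parental SW480 (12.9%), 0 members for ERB against vector in SW480 (0.661%) and 7 members, 20 stress fibre genes and 17 turnover genes for DMSO (47.4%). Further counts were 1 member, 3 stress fibre genes and 5 turnover genes for estradiol (19.1%).

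The 1-line fits, that with offsets chosen after seeing the data, could not be made for comparisons between lines, nor the fits without both SW480 empty vector libraries for comparisons that need them. Over all genes, the median log2 difference moved by over 0.1 with GC and length offsets, from 0.05 to -0.18 between parental lines and from -0.11 to 0.19 for vector in SW480. On the log2(FPKM + 1) scale it was -0.35 for vector in SW480, -0.36 for ERB against parental SW480, 0.21 for DMSO and -0.41 for the vector interaction. Member differences of under 0.4 in these comparisons are within such shifts. TAGLN in vector against parental SW480 reversed from -0.28 to 2.69 without parental SW480 I, and ranged down to -1.20 without parental SW480 II.

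With each of 16 libraries left out in turn, the remaining library of a pair was taken to vary as the other groups do. Members called ranged from 2 (without either parental SW620 library or parental SW480 II) to 4 between parental lines, and from 2 (without parental SW480 II) to 6 (without SW480 empty vector I) for vector in SW480. They ranged from 1 (without parental SW480 II or SW480 ERB I) to 6 (without either SW480 empty vector library) for ERB against parental SW480. The range was 0 (without either SW480 ERB library) to 2 (without SW480 empty vector II) for ERB against vector in SW480, 0 to 3 (without SW480 empty vector I) between lines with vector, and 0 (without either SW620 ERB library) to 2 (without either SW480 empty vector library) between lines with ERB. For DMSO it was 0 (without any 1 library of SW620 empty vector, ERB, DMSO or estradiol) to 4 (without either SW480 empty vector library), for the vector interaction 1 (without parental SW620 II or SW620 empty vector II) to 4 (without parental SW480 I or SW480 empty vector I), and for the ERB interaction 0 to 1 (without SW480 empty vector II). Over the same omissions the share of all genes called ranged from 7.41% to 28.3% between parental lines, 11.8% to 58.1% for vector in SW480, 4.44% to 56.9% for ERB against parental SW480, 0.486% to 4.74% for ERB against vector in SW480 and 0.0546% to 23.6% between lines with vector. It ranged from 0.251% to 6.27% between lines with ERB, 0% to 19.8% for DMSO, 1.88% to 42.5% for the vector interaction and 0% to 0.498% for the ERB interaction. Stress fibre genes ranged from 2 (without parental SW620 II) to 12 between parental lines, 2 (without parental SW480 II) to 17 for vector in SW480, 2 (without parental SW480 II or SW480 ERB I) to 20 for ERB against parental SW480, 0 to 3 for ERB against vector in SW480, 0 to 12 between lines with vector, 0 to 4 between lines with ERB and 0 to 12 for DMSO. Turnover genes ranged in the same order from 3 to 10, 7 to 20, 5 to 18, 0 to 1, 0 to 9, 0 to 2 and 0 to 9. The highest of these list counts came without a SW480 empty vector library, apart from 18 turnover genes, which also came without parental SW480 I, and 1 turnover gene for ERB against vector, which also came without parental SW480 II. Counts of 0 for vector, ERB against parental and ERB against vector in SW620 and for estradiol were 0 in all 16 omissions, for members and lists.

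Over 28 pairs of groups the deviations of library I from its group mean correlated at -0.738 to 0.655 (median -0.051), with 9 pairs over 0.1. They were taken without GC and length offsets, while libraries I and II of some groups differed in GC trend. Whether the replicate numbers pair the libraries cannot be told from them. With the number as a replicate block, members called for DMSO went from 1 to 0 (TAGLN2, adjusted p = 0.060 in edgeR), and ACTA2 dropped out of the count for ERB against parental SW480. The block gave 0 stress fibre genes between lines with ERB and for DMSO and 3 turnover genes for DMSO, and moved no other count of members or list genes by over 1.5 times. The share of all genes called with the block is not given here, so these counts are a description and not a result about these genes. Depth limits ACTA2 most, with 3 to 10 reads in each library of SW620 and of SW480 with empty vector.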
